A study of Mus musculus with 6 samples.

Results

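The TEAD transcription factors, their coactivators YAP and TAZ, and 4 genes known as their targets were followed through the differentiation of C2C12 myoblasts. The 10 genes were Tead1, Tead2, Tead3, Tead4, Yap1, Wwtr1 (which encodes TAZ), Ccn1 (formerly Cyr61), Ccn2 (formerly Ctgf), Ankrd1 and Amotl2. All probe sets that the platform annotation assigns to one of these symbols alone were taken, which gave 19 probe sets out of 45037 tested and 10 genes out of 18193. C2C12 is a mouse muscle cell line that divides as single myoblasts and fuses into myotubes once serum is lowered. Transcript levels were measured on 6 Affymetrix Mouse Genome 430 2.0 arrays, 3 for proliferating cells in 20% serum and 3 for cells harvested on day 6 after the change to 2% horse serum. Each RNA sample was a mixture of pools of culture plates, so replicate error here is that of such mixtures and not of single cultures. The differentiated cultures hold multinucleated myotubes together with mononucleated cells, and in such bulk RNA a change in the share of cells and a change in transcript per cell cannot be told apart. Differentiation and the amount and kind of serum cannot be told apart either, since they changed together.

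TEAD proteins bind DNA through the TEA domain at the MCAT element but activate transcription only weakly by themselves. YAP and TAZ do not bind DNA and act as coactivators through TEADs. The kinases of the Hippo pathway phosphorylate YAP and TAZ and so keep them out of the nucleus, and vestigial-like (VGLL) proteins compete for the same face of the TEADs. In muscle, MCAT elements lie in the promoters of several contractile genes, and YAP is known to respond to stretch and to the stiffness of the substrate. The arrays measured transcripts and neither the amount nor the location of the proteins.

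The values are linear MAS 5.0 signals, and changes are given as log2 fold changes (here log2 changes) of the signal plus 15, differentiated minus proliferating, each with its standard error (SE) from a limma fit over all probe sets. Calls were made where the p adjusted by Benjamini and Hochberg's method was under 0.05, and a gene was called by its brightest probe set. A signal at or under the brightest of 27 probe sets for Bacillus transcripts on the same array, which lay between 51.9 and 87.0, was read as background. All 6 myotube markers, among them Myog and Mymk, were called higher, and the 3 proliferation markers with a probe set (Mki67, Top2a and Cdk1) were called lower, with log2 changes of -3.79 to -3.13. Of 3 genes listed as myoblast markers, Des was called higher (0.82), and Myod1 (0.28) and Myf5 (-0.10) were not called. The paper, however, counts desmin among the markers of terminal differentiation. The summed signal of the 3 was 6066 to 6902 in proliferating and 9683 to 10070 in differentiated cells. Most of its rise came from Des, with means of 4299 and 7560. Myod1 had means of 1352 and 1641, and Myf5 of 721.5 and 667.2. Of 4 markers of reserve or quiescent myoblasts, Spry1 was higher by 1.91, Cd34 was not called, and Pax7 and Calcr lay at background on all arrays. The summed signal of these 4 was 297 to 339 in proliferating and 904 to 1060 in differentiated cells. Its rise was mostly that of Spry1, from a mean of 199 to 790, so the sum is no measure of reserve cells. The part of such cells in the results was not tested. None of the 8 measured markers of osteoblasts, adipocytes or endothelium was called higher, and Pparg of the adipocyte list was called lower (-0.75, adjusted p = 0.048). The summed signals of osteoblast markers, 139 to 226 and 168 to 326, of adipocyte markers, 257 to 297 and 191 to 275, and of endothelial markers, 128 to 189 and 93.1 to 205, overlapped between the groups.

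Of the 10 genes, 5 were higher in differentiated cells, 0 were lower and 5 were not called. Wwtr1, Ccn1, Ccn2, Ankrd1 and Amotl2 rose, all by more than 1.5-fold, while none of the 4 TEAD genes nor Yap1 was called. Over all genes, 8.67% were called higher, 9.05% lower and 17.7% in either direction. The share of all genes that were both called and changed by at least 1.5-fold was 6.67% for higher and 13.1% for either direction. At an unadjusted p under 0.05, Tead1, Tead4 and Yap1 were higher as well, which made 8 of the 10 genes, beside 15.4% of all genes at that threshold. The median log2 change of the 10 genes was 0.72, beside 0.06 over all genes. At 8 of the 10 brightest probe sets the groups did not overlap, which held for 33.5% of all genes.

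**Figure D1:**
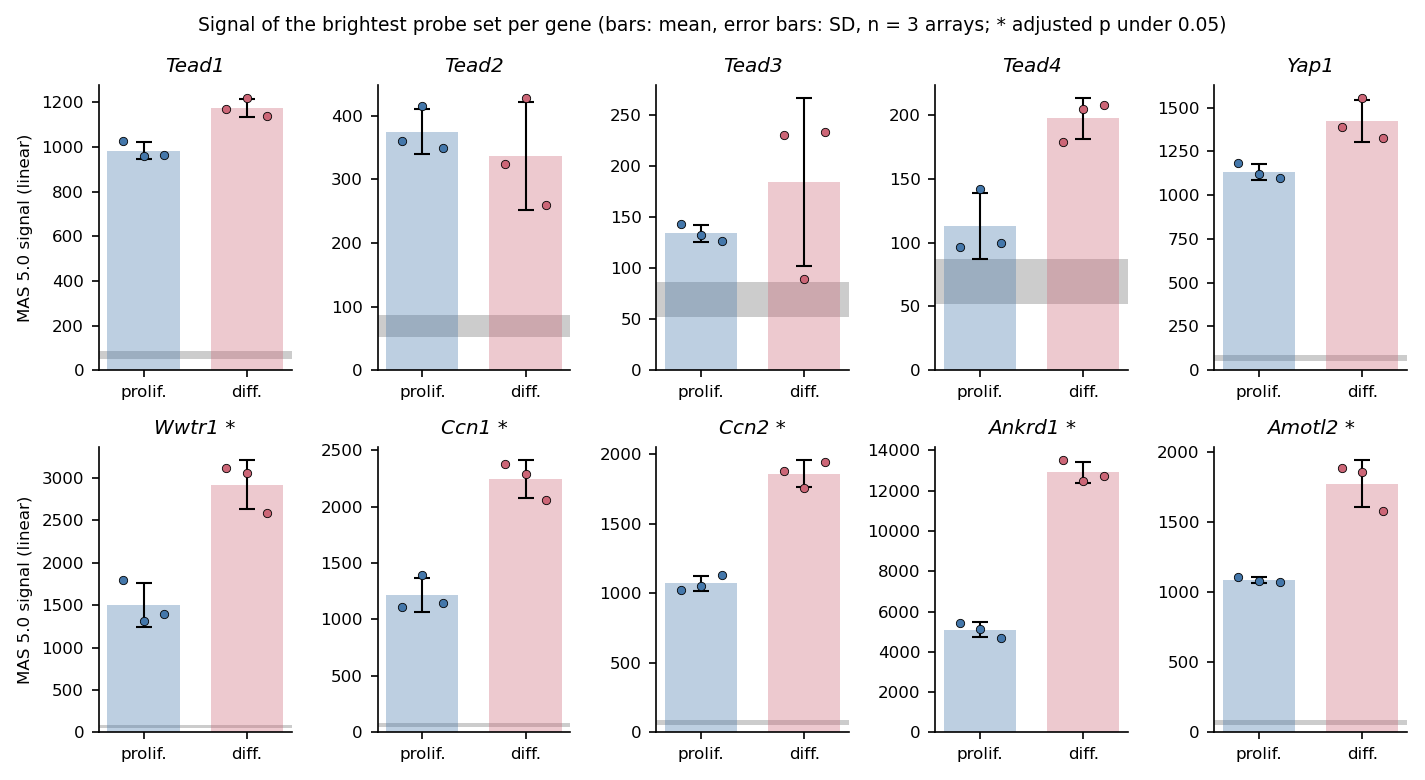
MAS 5.0 signal (vertical axes, linear, from 0) of the brightest probe set of each gene in proliferating and differentiated cells. Each bar gives a mean with its SD, each circle 1 of 3 arrays per group. Asterisks stand over called genes, and grey shading covers the background limits of the arrays, 51.9 to 87.0. Every differentiated array lies above every proliferating array in all panels but those of Tead2 and Tead3.

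Among the TEAD factors, Tead1 varied little between arrays of a group. Its brighter probe set (1429556_at) read 1028, 959 and 965 in proliferating cells and 1170, 1219 and 1136 in differentiated cells. The groups did not overlap, but the difference was small, with a log2 change of 0.25 (SE 0.09, 95% confidence interval 0.05 to 0.46, limma adjusted p = 0.12). The interval therefore leaves room for a change up to 0.46, and not for a rise of 1.5-fold. A second probe set of Tead1 (1423434_at) was above background on 1 of 6 arrays and gives no fold.

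Tead4, which is known as a target of MyoD in differentiating myoblasts, had the largest fitted change of the TEAD genes and was dim. At the brighter probe set (1426337_a_at) its signal was 96.5, 142 and 100 on the proliferating arrays and 179, 205 and 208 on the differentiated arrays. All 6 values were above the control of their own array, and the groups did not overlap. The log2 change of 0.75 (SE 0.25, 95% confidence interval 0.21 to 1.28) had an adjusted p of 0.071 from limma. Tead4 was called when dim probe sets were left out (adjusted p = 0.031), with the regularized test (adjusted p = 0.030), and without proliferating replicate 2 (0.90, adjusted p = 0.045). Proliferating replicate 2 is the array with the highest proliferating value. Over all 16 alternatives its adjusted p ran from 0.030 to 0.19. The other probe set of Tead4 (1460683_at) was at background on all arrays.

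Tead2, a family member best known from early embryos, and Tead3, known from placenta, each have 1 probe set, and in both the groups overlapped. Tead2 (1448519_at) was at 361, 415 and 349 in proliferating and at 325, 428 and 260 in differentiated cells, a log2 change of -0.17 (SE 0.18, 95% confidence interval -0.56 to 0.22, limma adjusted p = 0.67). That value moved to -0.0025 without differentiated replicate 3 and to -0.35 without differentiated replicate 2. Tead3 (1420593_a_at) was at 143, 133 and 127 in proliferating cells. Its differentiated values were split, at 231, 89.9 and 233, with replicate 2 below every proliferating array. The log2 change of Tead3 was 0.32 (SE 0.32, 95% confidence interval -0.39 to 1.02, limma adjusted p = 0.65), and Tead3 was not called under any of the alternatives. It was 0.73 without differentiated replicate 2, and 0.11 without differentiated replicate 1 or differentiated replicate 3.

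YAP and TAZ are paralogous coactivators, and at the brightest probe sets Wwtr1 was called higher while Yap1 lay just short of the threshold. Yap1 at its brighter probe set (1448363_at) read 1186, 1120 and 1097 in proliferating cells and 1391, 1555 and 1325 in differentiated cells. The groups did not overlap, and the log2 change was 0.32 (SE 0.10, 95% confidence interval 0.11 to 0.54, limma adjusted p = 0.053). Yap1 was called with quantile normalization (adjusted p = 0.035), with the pseudocount at the 40th percentile (adjusted p = 0.049), with dim probe sets left out (adjusted p = 0.044) and without differentiated replicate 3 (adjusted p = 0.048), at no more than 0.37 each time. Over all 16 alternatives its adjusted p ran from 0.035 to 0.90, the highest value with both probe sets averaged (0.05). The second probe set of Yap1 (1416487_a_at) had a fitted change in the other direction, -0.23 (SE 0.24, adjusted p = 0.66), with overlapping groups.

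Wwtr1 had signals of 1793, 1308 and 1397 in proliferating and of 3116, 3053 and 2587 in differentiated cells at its brightest probe set (1417818_at). The lowest differentiated array was well above the highest proliferating one. The log2 change was 0.96 (SE 0.13, limma adjusted p = 0.00016), a 1.95-fold rise. The 2 other probe sets of Wwtr1, whose names mark them as matching several transcripts of the gene, were not called. The one numbered 1417817_a_at was at 721, 430 and 535 and at 556, 421 and 985, and the one numbered 1437155_a_at at 385, 277 and 336 and at 460, 348 and 699. At both of them differentiated replicate 3 was the highest array, while at the brightest probe set it was the lowest of the differentiated arrays. Their log2 changes were 0.15 (SE 0.26, adjusted p = 0.81) and 0.53 (SE 0.22, adjusted p = 0.16). With the 3 probe sets averaged, Wwtr1 was not called (0.55, adjusted p = 0.078), so the call of Wwtr1 rests on 1 probe set. Without differentiated replicate 2, the probe set 1437155_a_at was called as well (0.76, adjusted p = 0.039). The mark for several transcripts of a gene is also in the names of called probe sets, 1452387_a_at of Amotl2 and 1438133_a_at of Ccn1. What sets the probe sets of Wwtr1 apart was not tested.

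The difference between the change of Wwtr1 and that of Yap1 was not tested, and within each gene the probe sets differed in their fitted changes.

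**Figure D2:**
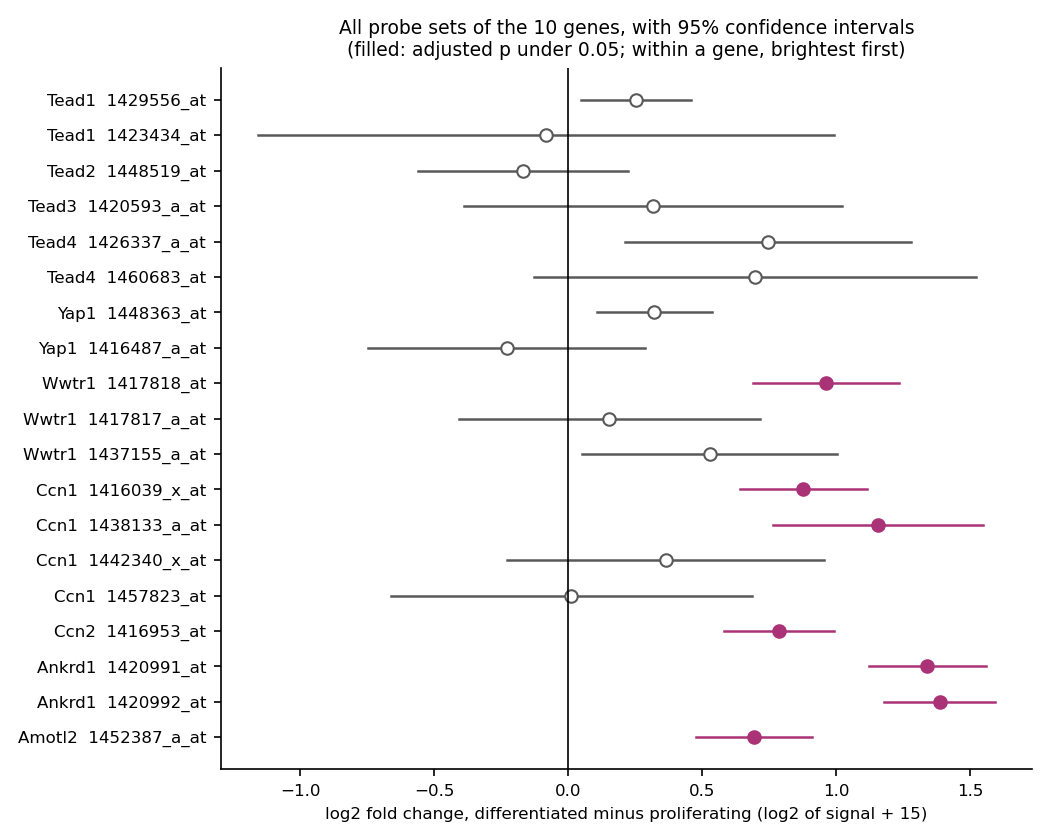
Log2 fold change along the horizontal axis (differentiated minus proliferating, log2 of signal plus 15) of all 19 probe sets of the 10 genes (vertical axis), with 95% confidence intervals from 3 arrays per group. Called probe sets are filled. The 7 called probe sets belong to Wwtr1, Ccn1, Ccn2, Ankrd1 and Amotl2 and lie between 0.69 and 1.39, and the 12 open ones include 2 of 3 for Wwtr1 and 2 of 4 for Ccn1.

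Ccn1, Ccn2, Ankrd1 and Amotl2 are known targets of the YAP, TAZ and TEAD complex, and all 4 rose. Over all 19 probe sets of the 10 genes, 7 were called higher and 0 lower, beside 6.14% higher, 6.43% lower and 12.6% in either direction over all probe sets. The stretch of 250 bases before the annotated start site is shown for the risen genes listed in the RefSeq promoter table (build GRCm38.p6), since the TEAD core motif GGAATG, or its reverse complement CATTCC, can be seen in each. All lie 5′ to 3′ along the gene, with the motif in capitals. They span chr19:36119845-36120094 for Ankrd1, chr3:145649986-145650235 for Ccn1 and chr3:57575911-57576160 for Wwtr1, all on the minus strand, and chr9:102717554-102717803 for Amotl2 on the plus strand. For Wwtr1 the outer of its 2 annotated starts is shown.
Ankrd1: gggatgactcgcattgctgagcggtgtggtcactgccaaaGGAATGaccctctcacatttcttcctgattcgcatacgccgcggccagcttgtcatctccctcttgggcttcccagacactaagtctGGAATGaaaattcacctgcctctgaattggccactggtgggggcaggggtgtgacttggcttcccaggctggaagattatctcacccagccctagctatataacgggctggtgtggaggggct
Ccn1: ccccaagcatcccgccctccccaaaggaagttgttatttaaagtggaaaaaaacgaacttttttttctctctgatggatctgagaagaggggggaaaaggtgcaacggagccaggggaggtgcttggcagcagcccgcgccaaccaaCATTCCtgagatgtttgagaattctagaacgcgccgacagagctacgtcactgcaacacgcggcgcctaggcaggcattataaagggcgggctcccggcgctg
Amotl2: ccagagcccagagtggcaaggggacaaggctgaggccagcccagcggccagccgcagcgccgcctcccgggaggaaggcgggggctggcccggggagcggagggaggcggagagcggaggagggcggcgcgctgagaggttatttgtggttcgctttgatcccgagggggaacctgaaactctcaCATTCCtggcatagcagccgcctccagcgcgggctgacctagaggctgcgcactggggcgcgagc
Wwtr1: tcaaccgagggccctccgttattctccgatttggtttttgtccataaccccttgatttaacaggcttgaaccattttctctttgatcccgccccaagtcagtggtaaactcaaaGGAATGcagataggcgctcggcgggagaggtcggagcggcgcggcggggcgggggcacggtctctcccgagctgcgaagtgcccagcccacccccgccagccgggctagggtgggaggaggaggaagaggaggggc

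Ankrd1, a muscle ankyrin repeat protein that binds titin at the I-band and also enters the nucleus, had the largest change of the 10 genes. At the brighter probe set (1420991_at) it read 5435, 5158 and 4691 in proliferating cells and 13509, 12478 and 12754 in differentiated cells. The lowest differentiated value was more than 2 times the highest proliferating one. The log2 change was 1.34 (SE 0.10, limma adjusted p = 1.5e-06), or 2.53-fold. The second probe set (1420992_at) gave 4224, 4440 and 4392 against 11504, 12037 and 10703, a log2 change of 1.39 (SE 0.10, adjusted p = 6.8e-07). Ankrd1 was called under all 16 alternatives, with log2 changes from 1.28 to 1.54.

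Ccn1 and Ccn2 encode secreted matricellular proteins of the CCN family that bind integrins. Ccn2 has 1 probe set (1416953_at), at 1028, 1054 and 1133 in proliferating cells and 1882, 1756 and 1947 in differentiated cells. Its groups lay well apart, with a log2 change of 0.79 (SE 0.09, limma adjusted p = 8e-05), or 1.73-fold, and it was called under all 16 alternatives.

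For Ccn1 the 2 brighter of 4 probe sets rose. At the brightest (1416039_x_at) the signal was 1111, 1393 and 1145 in proliferating and 2380, 2289 and 2056 in differentiated cells, a log2 change of 0.88 (SE 0.11, limma adjusted p = 0.00012). At the next (1438133_a_at) it was 418, 592 and 756 in proliferating and 1466, 1329 and 1113 in differentiated cells, a log2 change of 1.16 (SE 0.18, adjusted p = 0.00072). This second call was lost with eBayes without trend, that is with a variance prior that does not follow the signal (adjusted p = 0.060), whereas that of the brightest probe set held under the 15 alternatives run on single probe sets. With all 4 probe sets averaged, Ccn1 was at 0.60 (adjusted p = 0.027). The 2 dim probe sets, which the annotation ties to one and the same sequence entry, were between 81.0 and 171 on all arrays. Their fitted changes were 0.36 (SE 0.27, adjusted p = 0.50) and 0.01 (SE 0.31, adjusted p = 0.99).

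Amotl2, an angiomotin-like scaffold protein that binds YAP and is itself a target of the complex, has 1 probe set (1452387_a_at). It was at 1110, 1077 and 1076 in proliferating cells and at 1885, 1855 and 1582 in differentiated cells. The proliferating arrays were nearly level, and the groups did not overlap. The log2 change was 0.69 (SE 0.10, limma adjusted p = 0.00036), or 1.62-fold, the smallest of the called genes. It was not called with eBayes without trend (adjusted p = 0.064) and was called under the other 15 alternatives.

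The promoter table held a window of 250 bases before to 50 after the start for 7 of the 10 genes, 10 windows in all, while Tead1, Tead4 and Ccn2 had none there. The core motif GGAATG, searched on both strands, was found in 8 of these 10 windows and in 6 of the 7 genes. Over all 32851 windows 14.7% held it, and 16.6% of all 27025 genes held it in at least 1 window. Ankrd1 held 2, at bases -210 to -205 and -123 to -118 from the start, and 2 or more were found in 1.36% of all windows. Ccn1 had 1 at -103 to -98 and Amotl2 1 at -65 to -60. The motif also lay in the windows of both coactivators, at -141 to -136 for Yap1 and, for the outer start of Wwtr1, at -136 to -131, the same site being in the window of its other start. In Tead3 the windows of 2 of 3 starts held it, one of them 3 times, more than in Ankrd1, and Tead2 had none. Yap1 and Tead3, which were not called, thus held the motif as well. The AP-1 motif TGANTCA (7.81% of all windows) and the CArG box bound by SRF (1.63%) were found in none of the 10 windows. A match of letters is no measured binding site, and the 4 targets are genes long studied for TEAD binding, so the count does not test it.

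**Figure D3:**
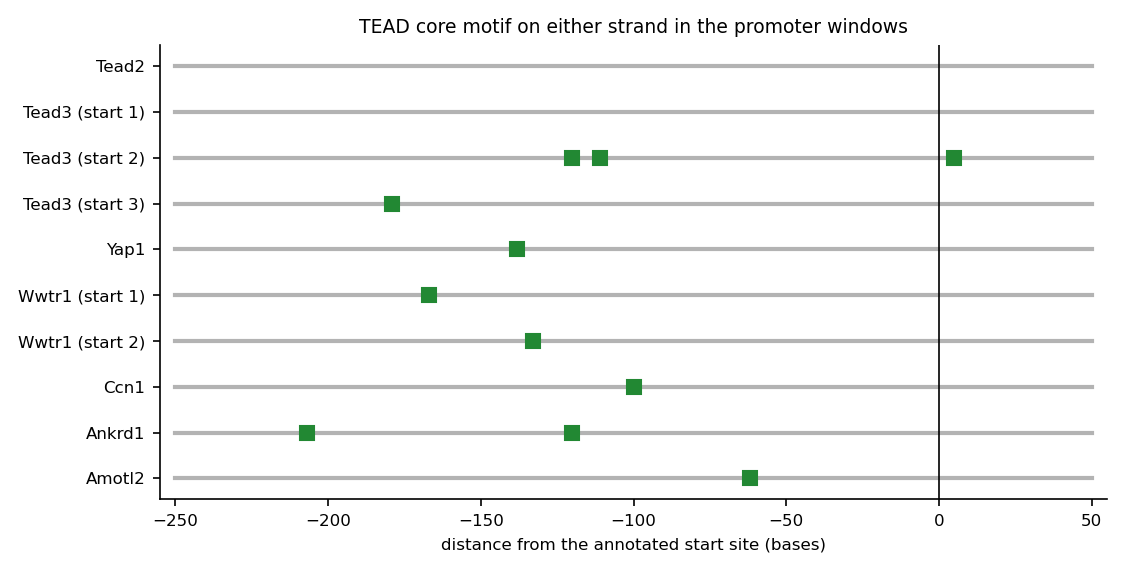
Position of the TEAD core motif on either strand (green squares) in the promoter windows of 7 of the 10 genes (vertical axis; genes with several annotated starts have a line for each). The horizontal axis is the distance from the annotated start site in bases, from 250 before to 50 after. Of 10 windows, 8 hold the motif, those of Tead2 and of 1 start of Tead3 being the others.

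The genes of the Hippo pathway around these factors moved in both directions. Of 28 listed genes 27 had a probe set, and 4 were higher, 4 lower and 19 not called. The share called, 8 of 27, stands beside 17.7% over all genes, and the median log2 change of 0.06 equals that of all genes to 2 decimals. Among the core kinases, Stk3 had no probe set annotated to it alone. Stk4, Lats1 and Lats2 were not called, at 0.23, -0.07 and 0.04. For Lats2, itself a target of YAP and TAZ, the groups did not overlap at 3 of 5 dimmer probe sets, beside 27.2% of all probe sets. A pair of these had fitted changes of 0.57 (adjusted p = 0.053) and 0.64 (adjusted p = 0.13), and the third, at background on all arrays, had a fitted change of -1.04 (adjusted p = 0.21). Of the core adaptors, Mob1a, which activates the LATS kinases, fell at all 3 of its probe sets. Its brightest went from 2322 ± 276 to 1367 ± 182 (mean and SD, n = 3 arrays each), a log2 change of -0.76 (SE 0.12, limma adjusted p = 0.00083). Sav1 and Mob1b were at -0.15 and 0.33 and were not called.

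Of 11 upstream regulators 1 was higher, 3 were lower and 7 were not called. Taok1, a kinase that can activate the Hippo kinases, rose from 750 ± 121 to 1928 ± 11.7 (mean and SD, n = 3 arrays each), with a log2 change of 1.36 (limma adjusted p = 6e-06), with 3 of 7 probe sets called higher and none lower. Wwc1, the scaffold KIBRA, went from 186 ± 24.8 to 41.9 ± 23.8 (mean and SD, n = 3 arrays each), with 1 of 3 differentiated arrays above background, a log2 change of -1.92 (SE 0.40, adjusted p = 0.0064). A second of its 4 probe sets was also called lower, and 2 dim ones were not called. Its relative Wwc2 changed by -0.71 (adjusted p = 0.035) at 1 of 5 probe sets, a call that ended without any single proliferating array (-0.76 to -0.64), without differentiated replicate 3 (-0.43) and with eBayes without trend (adjusted p = 0.23). Fat1, an atypical cadherin, fell from 2649 ± 258 to 1698 ± 72.4 (mean and SD, n = 3 arrays each), a log2 change of -0.63 (adjusted p = 0.00067). With eBayes without trend, Mob1a (adjusted p = 0.079) and Fat1 (adjusted p = 0.085) were not called. The genes not called were Nf2, Frmd6, Taok2, Taok3, Map4k4, Fat4 and Dchs1, though 1 of the dimmer probe sets of Taok3 was called lower (adjusted p = 0.044), at background on all differentiated arrays. Fat4 and Dchs1 were hardly detected, each above background on 0 proliferating arrays and 1 differentiated array. Taok2 was above background on 1 of 3 proliferating arrays and on all differentiated arrays.

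Of 6 listed genes for proteins that bind YAP or the Hippo kinases, both other angiomotins were called higher, as Amotl2 was. Amotl1 had signals of 1426, 1523 and 1465 in proliferating and 3658, 4251 and 3094 in differentiated cells. These groups lay far apart, with a log2 change of 1.30 (SE 0.11, limma adjusted p = 5.9e-06), and 2 of its 3 probe sets were called. Amot rose by 0.81 (SE 0.14, adjusted p = 0.0012) at 1 of 3 probe sets, and was not called with eBayes without trend (adjusted p = 0.065). Ajuba, Limd1 and Wtip, LIM proteins that bind the LATS kinases, and Ptpn14, a phosphatase that binds YAP, were not called, at -0.30 to -0.06.

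Among the vestigial-like cofactors of TEADs, Vgll3 had the clearest change. It was at 277, 269 and 279 in proliferating and at 823, 734 and 750 in differentiated cells, nearly level within each group. Its log2 change was 1.43 (SE 0.12, limma adjusted p = 4.4e-06), and all 3 of its probe sets were called higher. Vgll2, the member best known from skeletal muscle, was at 548, 484 and 481 and at 405, 355 and 371, with groups that did not overlap and a log2 change of -0.40 (SE 0.13, adjusted p = 0.063). It was called when the arrays were scaled to the same 75th percentile (-0.46, adjusted p = 0.035). Vgll4 was at 0.06 (adjusted p = 0.94), and Vgll1 was above background on 1 proliferating and 2 differentiated arrays and was not called (adjusted p = 0.49).

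The other genes of a widely used signature of YAP and TAZ target genes, which holds the 4 targets above, were not uniform. Of these 18, 4 were higher, 3 lower and 11 not called, beside 8.67% higher and 9.05% lower over all genes, with a median log2 change of -0.21. Tgfb2, a ligand of the TGF-beta family, rose from 198 ± 3.83 to 495 ± 71.1 (mean and SD, n = 3 arrays each), a log2 change of 1.25 (SE 0.16, limma adjusted p = 0.00012), with 3 of 4 probe sets called. Ccdc80, a secreted matrix protein, rose at both of its probe sets, by 1.10 at the brighter (SE 0.12, adjusted p = 4.4e-05). F3, the tissue factor that starts coagulation, rose from 108 ± 39.8 to 246 ± 44.3 (mean and SD, n = 3 arrays each), by 1.12 (adjusted p = 0.015), and was not called without proliferating replicate 1 (1.04) or differentiated replicate 2 (0.99), nor with eBayes without trend (adjusted p = 0.077). Rbms3, an RNA-binding protein, passed at 0.53 (adjusted p = 0.048) and lost its call under 12 of 15 alternatives, among them the omission of any proliferating array (0.49 to 0.56) and of differentiated replicate 2 (0.42) or 3 (0.53).

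In the other direction, Myof, a ferlin of the plasma membrane that takes part in myoblast fusion, fell from 2682 ± 97.6 to 1243 ± 285 (mean and SD, n = 3 arrays each). Its log2 change was -1.13 (SE 0.14, limma adjusted p = 0.00012), while its second probe set lay at background. Axl, a receptor tyrosine kinase, changed by -0.39 (adjusted p = 0.015), and Arhgef17 by -0.47 (adjusted p = 0.037) at 1 of 5 probe sets. Both changes were below 1.5-fold, and the calls of Axl and Arhgef17 were lost under 6 and 8 of 15 alternatives, including without proliferating replicate 1 (-0.37 and -0.48), proliferating replicate 3 (-0.40 and -0.42) or differentiated replicate 3 (-0.32 and -0.33). That of Arhgef17 was also lost without proliferating replicate 2 (-0.52) or differentiated replicate 1 (-0.54). A pair of other probe sets of Arhgef17 had fitted changes in the other direction, 0.72 (adjusted p = 0.058) and 0.61 (adjusted p = 0.32). Igfbp3, Crim1, Fjx1, Foxf2, Gadd45b, Nt5e, Dock5, Asap1, Nuak2, Lats2 and Ptpn14 were not called. Among them, Asap1 (-0.35, adjusted p = 0.058) and Nt5e (0.61, adjusted p = 0.063) were called under 4 and 3 of 15 alternatives. Igfbp3 was above background on 1 proliferating array and 0 differentiated arrays. At 1 of 2 dimmer probe sets Dock5, a guanine nucleotide exchange factor, was called lower (-1.40, SE 0.29, adjusted p = 0.0057), a call lost with eBayes without trend (adjusted p = 0.064).

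**Figure D4:**
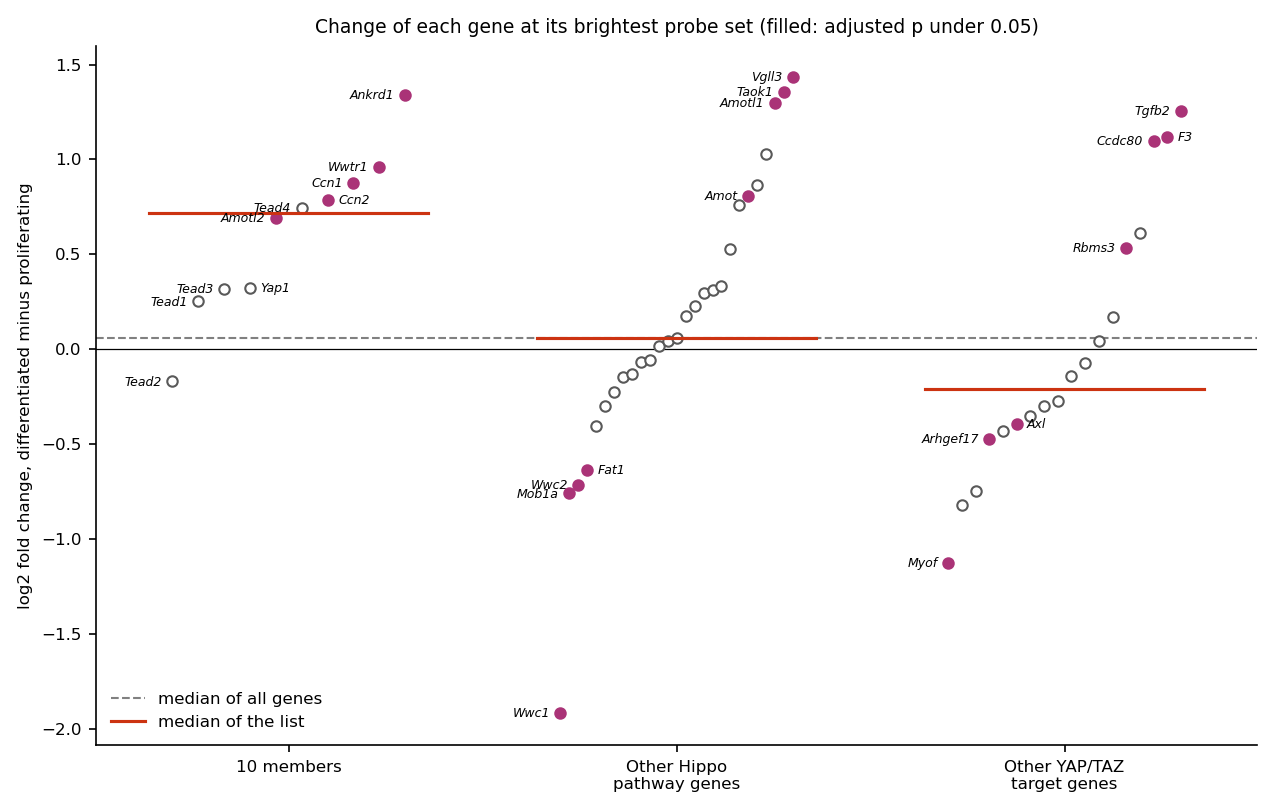
Log2 fold change on the vertical axis (differentiated minus proliferating, 3 arrays in each group) for each gene at its brightest probe set, for the 10 genes, 27 other genes of the Hippo pathway and 18 other target genes (horizontal axis). Called genes are filled, red lines are list medians, 0.72, 0.06 and -0.21, and the dashed line is the median of all genes, 0.06. Lats2 and Ptpn14 stand in both of the wider lists.

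The relatives of the targets can be set beside them. Of the other CCN genes, Ccn4 rose by 0.47 (SE 0.11, limma adjusted p = 0.016), less than 1.5-fold, and both of its probe sets were called. The call was lost without proliferating replicate 3 (0.36) or differentiated replicate 3 (0.41) and with eBayes without trend (adjusted p = 0.22). Ccn3 and Ccn5 were not called, at 0.64 and 0.41. Ccn6 was not called either, and with 0 proliferating arrays and 1 differentiated array above background it gives no fold. Both other muscle ankyrin repeat genes rose. Ankrd2 was at 62.7, 119 and 128 in proliferating cells, 2 of them above background, and at 2389, 2142 and 2388 in differentiated cells, a log2 change of 4.34 (SE 0.20, adjusted p = 1.7e-08). Ankrd23 was at background on all proliferating arrays and at 229, 237 and 223 in differentiated cells, at least 3.0-fold higher (adjusted p = 0.00027). Ankrd1, by contrast, was well above background on all proliferating arrays.

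Of 4 muscle genes with a known MCAT element, all were called higher, beside 8.67% of all genes. Acta1 is also among the myotube markers above, and the part of TEADs in these changes was not tested. Tnnt2, cardiac troponin T, rose from 698 ± 90.3 to 11090 ± 892 (mean and SD, n = 3 arrays each). Its log2 change was 3.97 (limma adjusted p = 3.4e-10). Smooth muscle actin Acta2 rose by 0.75 (adjusted p = 0.00032) at the brightest of its 3 probe sets. A dimmer one, above background on 1 of 3 proliferating arrays, was also called higher, at 3.10 (adjusted p = 0.00022). The remaining one, at background on all proliferating arrays, was not called (1.57, adjusted p = 0.067). The size of the rise of Acta2 is therefore not settled. Acta1, skeletal actin, rose by 6.56 (adjusted p = 1.6e-12). Myh7, slow myosin, had a fitted change of 4.27 (adjusted p = 6.2e-06), with 1 of 3 proliferating arrays above background, so its size is poorly fixed.

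By likeness over the 6 arrays, the genes closest to Ankrd1, taken as the member with the largest change, were Cfl2, Dvl1 and Actn2, out of 11443 genes whose mean signal over the 6 arrays was above the median. Their Pearson's r with Ankrd1 on the log2 scale was 0.9997, 0.9995 and 0.9993. With 2 groups on 6 arrays, such an r holds little beyond the step between the groups and is given as a description. Cfl2, muscle cofilin, went from 3725 ± 184 to 7348 ± 124 (mean and SD, n = 3 arrays each), and Dvl1, a protein of Wnt signalling, from 711 ± 52.8 to 1527 ± 59.0. Actn2, the alpha-actinin of the sarcomeric Z-disc, was at background on all proliferating arrays and passed the signal limit only through the differentiated arrays, so its r rests in part on values below background and its place in this order carries no weight.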

How the data were processed

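RNA of C2C12 cells was hybridised to Affymetrix Mouse Genome 430 2.0 arrays, 3 per group, grouped by the sample titles. The authors deposited intensity values, MAS 5.0 signals on a linear scale, whose trimmed mean was 250 on every array. The authors' later GCRMA step needs probe-level data, not used here. Of 45101 probe sets, 64 controls were left out. Of the 45037 tested, the platform annotation gives 1 gene to 34945, several to 932 and none to 9160. Log2 values of the signal plus 15 entered limma 3.58.1 under R 4.3.3 (lmFit, eBayes with trend, 2-sided, Benjamini-Hochberg over all probe sets), and the fit was tested on simulated data. Confidence intervals are limma's. A fold against a group at background is a lower bound. Alternatives covered normalization, pseudocount, dim probe sets, variance model, a Bayesian regularized test like that of the authors (window 101, weight 10), the replicate block, leaving out each array and, added after the data were seen, a call rule with 1.5-fold. Other genes named are the called genes of each list, up to 4 per direction, all genes of the small families, and the 3 genes most like the member with the largest change. The members, lists and the background limit were chosen with earlier results of these data known. Counts and promoter searches used Python 3.11.15, pandas 2.3.3 and numpy 2.4.6. The number of arrays limits the precision.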

Additional observations from a re-analysis of the deposited data

How the results depend on the processing

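With 3 arrays per group, a change near the threshold can be missed, and the 5 genes not called are not shown to be unchanged. Of the 10 genes, 5 were called, and 4 to 7 over the alternatives. With eBayes without trend, the calls fell to 4 in the Hippo pathway list, 3 in the target list and 2669 of all probe sets, from 8, 7 and 5659. With the call rule of 1.5-fold, 4 genes of the target list were called. Leaving out each array in turn, the target list had 4 to 7 calls (4 without proliferating replicate 1 or 3 or differentiated replicate 3), the Hippo list 7 to 8, the 10 genes 5 to 6 and all probe sets 4254 to 4932. No gene of the 10 changed its direction under any alternative. Any pairing of the arrays by replicate number was weak. Deviations of same-numbered arrays correlated at 0.012, 0.00066 and 0.0094, beside -0.015 to 0.0050 for the other pairs. Over probe sets brighter than the median, same-numbered arrays correlated at 0.053, 0.021 and 0.019, above the -0.031 to 0.0085 of the other pairs. With the replicate block 5 of the 10 genes, 8 of the Hippo list, 5 of the target list and 5287 of all probe sets were called, Arhgef17 (adjusted p = 0.057) and Rbms3 (adjusted p = 0.066) no longer among them.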
